A study of Mus musculus with 30 samples.

Results

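The vascular endothelial growth factor (VEGF) family was followed through 9 genes: the ligands Vegfa, Vegfb, Vegfc and Pgf, the receptors Kdr, Flt1 and Flt4, and the co-receptors Nrp1 and Nrp2. A gene was read from a probe set that carries its symbol and no other, and 8 of the 9 genes, among the 30142 genes tested, had such a probe set, 1 each. The probe set of Nrp1 also carries the symbol of a microRNA, Mir1903, so Nrp1 is given no value. RNA came from the uterus of female mice aged 21 days, on 30 arrays in 10 groups of 3. Wild type (WT) mice and mice with a knockout of estrogen receptor alpha (KO, labelled Ex3aERKO) each formed 5 groups: saline vehicle at 24 h, 17β-estradiol (E2, 250 ng) at 2 h and at 24 h, and insulin-like growth factor 1 (IGF1, 50 ug) at 2 h and at 24 h. E2 and vehicle were given as 1 injection of 100 ul, while IGF1 was in PBS and was given 1 time for the 2 h groups and 3 times for the 24 h groups. Vehicle was sampled at 24 h alone, so each contrast of a 2 h group with vehicle also holds the time after injection and the injection itself. Contrasts of an IGF1 24 h group with vehicle, E2 or IGF1 2 h also hold the number of injections. Those of IGF1 with vehicle also hold PBS against saline. Whether the replicates of a group come from separate animals is not stated in the labels. P-values therefore measure the spread between these samples, which may be technical, and 3 arrays a group limit the precision.

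VEGF-A, encoded by Vegfa, drives the growth and leakiness of blood vessels by binding the tyrosine kinase receptors VEGFR2 (gene Kdr) and VEGFR1 (gene Flt1) on endothelial cells. VEGFR1 binds VEGF-A tightly and signals weakly, and it is also the receptor of placental growth factor (Pgf) and VEGF-B (Vegfb). VEGF-C (Vegfc) acts mainly through VEGFR3 (gene Flt4) on lymphatic endothelium, and neuropilins such as Nrp2 bind both VEGFs and class 3 semaphorins. In the rodent uterus, estrogen is known for a rapid rise in vessel permeability and water content, and Vegfa is among its known early target genes.

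Levels are log2 values as deposited, and a difference is a log2 difference ± standard error (SE) from limma, between groups of n = 3, with Benjamini-Hochberg adjustment over all genes of the comparison. A change was called at adjusted p under 0.05. The background level of an array, the 95th percentile of 1225 olfactory receptor genes, lay between 5.69 and 6.57. Vegfa, Vegfb, Vegfc, Kdr, Flt1 and Nrp2 were above it on 30 of 30 arrays, Flt4 on 28 and Pgf on 22. Esr1, the targeted gene, was at 11.73, 12.43 and 12.73 in WT vehicle and at 10.41, 10.29 and 10.08 in KO vehicle, and its probe set may lie outside the deleted exon. All 11 measured stromal and all 10 myometrial markers, and 12 of 13 epithelial ones, were above background on every array. The array of WT vehicle replicate 1 stands apart: Xist, the RNA of the inactive X chromosome, was at 10.16 there and between 17.01 and 18.12 on the other 29 arrays, and the array had the lowest weight (0.166). KO E2 24 h replicate 2 had the next lowest weight (0.259). KO IGF1 2 h replicate 3 differed from its mates in genes chosen after their values were seen: Fbxo32, a muscle ubiquitin ligase repressed by insulin-like signals, was at 13.31 against 9.44 and 7.55, and Ddx21, an RNA helicase of ribosome production, at 9.78 against 12.36 and 11.82. Results that rest on these arrays are given with and without them.

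In WT uterus 2 h after E2, 5 of the 8 measured genes changed, against 19.0% of all genes. Vegfa, Pgf and Nrp2 rose, and Vegfc and Vegfb fell. In WT uterus 2 h after IGF1, 4 of 8 changed, against 17.2% of all genes: Vegfa, Flt1 and Kdr rose and Vegfc fell. Without WT vehicle replicate 1 both counts were 4. For E2, Vegfb was then not called. For IGF1, Kdr was not called (0.42, adjusted p = 0.0977 by limma) and Pgf was (0.55, adjusted p = 0.0266). At 24 h no member was called in WT after E2 or after IGF1, and none had an unadjusted p under 0.05. Of all genes, 30.1% and 4.28% were called there. Without WT vehicle replicate 1, Nrp2 was called at 24 h after E2 (-1.01, adjusted p = 0.00826 by limma). In KO uterus E2 gave no called member at 2 h (0.365% of all genes) or at 24 h (0% of all genes, although 3735 genes had an unadjusted p under 0.05), with 1 and 2 members at an unadjusted p under 0.05. IGF1 in KO gave 2 called members of 8 at 2 h (7.13% of all genes) and 2 at 24 h (13.6% of all genes).

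**Figure D1:**
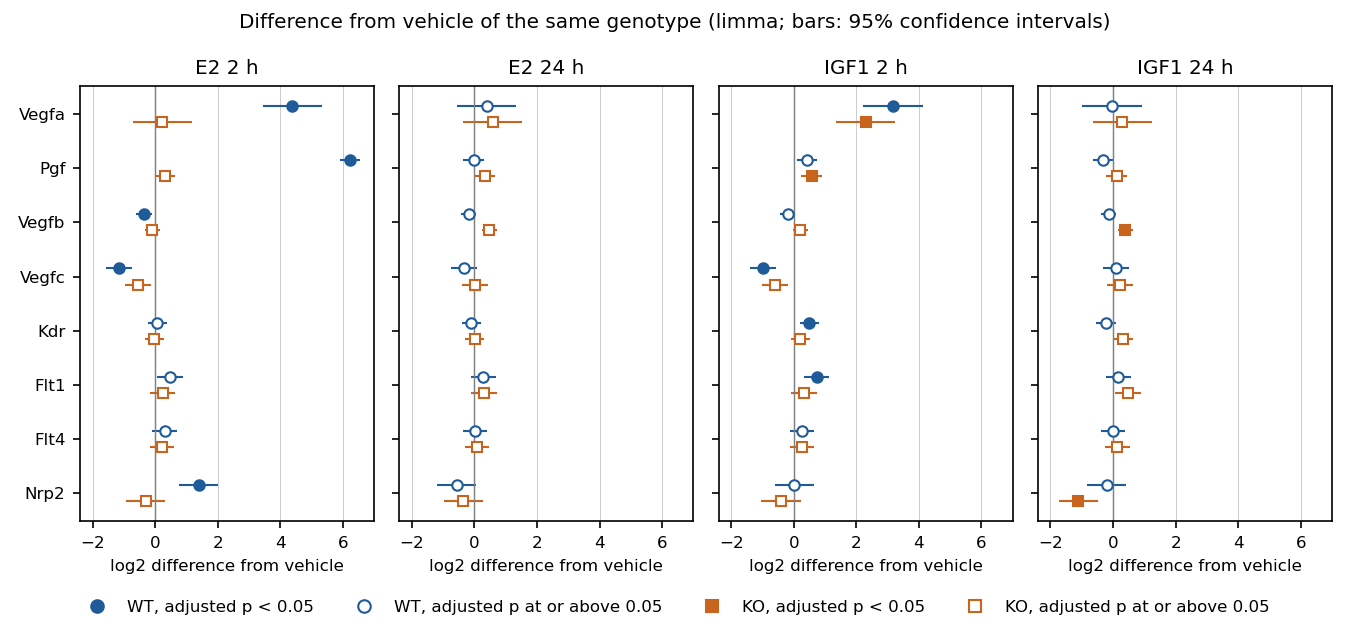
Log2 difference from vehicle of the same genotype (x axis) for the 8 measured VEGF family genes (y axis), with 95% confidence intervals from limma. Circles are WT and squares KO, filled where the adjusted p was under 0.05. Vegfa, Pgf and Nrp2 lie well to the right in WT 2 h after E2 and near 0 in KO, while Vegfa lies to the right in both genotypes 2 h after IGF1.

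Vegfa, the main angiogenic ligand, had levels of 8.87, 9.20 and 9.47 in WT vehicle and 13.80, 13.42 and 13.45 in WT 2 h after E2. The groups did not overlap, and the difference was 4.38 ± 0.46 (20.8-fold, adjusted p = 1.61e-07). Without WT vehicle replicate 1 it was 4.23 ± 0.52. IGF1 at 2 h gave 11.96, 13.00 and 12.11, a difference of 3.17 ± 0.46 (9.03-fold, adjusted p = 4.25e-05), or 3.02 ± 0.52 without that vehicle array. Both treatments were set against the same vehicle arrays. Compared directly at 2 h, E2 lay above IGF1 by 1.21 (95% interval 0.26 to 2.15), on all 3 arrays, with an adjusted p of 0.159, and with array weights the difference of 1.35 was called (adjusted p = 0.00206). At 24 h Vegfa was at 9.68, 9.61 and 9.45 after E2 and at 8.85, 8.98 and 9.60 after IGF1, differences from the 2 h group of the same treatment of -3.98 ± 0.46 (adjusted p = 3.17e-07) and -3.21 ± 0.46 (adjusted p = 4.43e-05).

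In KO uterus Vegfa was at 9.16, 9.23 and 9.12 in vehicle and at 9.26, 9.68 and 9.26 at 2 h after E2, a difference of 0.23 (95% interval -0.72 to 1.17, adjusted p = 0.865). The interaction, in which the WT change is subtracted from the KO change, was -4.15 ± 0.65 (adjusted p = 0.000148), a test in which 8.00% of all genes were called. IGF1 at 2 h gave 12.04, 12.81 and 9.57 in KO. The first and second of these arrays lay within the WT range, and the third lay just above the highest KO vehicle array. The difference from vehicle was 2.30 ± 0.46 (4.94-fold, adjusted p = 0.00424). Without KO IGF1 2 h replicate 3 it was 3.25 ± 0.27 (adjusted p = 4.73e-08), without replicate 2 it was 1.64 ± 0.42 (adjusted p = 0.0364), and without replicate 1 it was 2.02 ± 0.50 and no longer called (adjusted p = 0.0524). It was also not called when the fit held only these groups (adjusted p = 0.324). The genotype interaction for IGF1 at 2 h was -0.87 (95% interval -2.21 to 0.46, adjusted p = 0.876), and without replicate 3 it was 0.08 ± 0.36. Without KO IGF1 2 h replicate 2 it was -1.54 ± 0.56 (adjusted p = 0.456), and without WT IGF1 2 h replicate 2 it was -0.55 ± 0.67. The estimate thus depended on single arrays. With all arrays that interaction called 0.0133% of all genes and no member of the family, with 1 member at an unadjusted p under 0.05. E2 minus IGF1 at 2 h in KO was -2.08 ± 0.46 (adjusted p = 0.0179; 3.04% of all genes called), and -3.03 ± 0.27 without KO IGF1 2 h replicate 3. This call was lost without KO IGF1 2 h replicate 1 or 2 or KO E2 2 h replicate 1, with differences of -1.79, -1.41 and -2.01. The same treatment difference in KO minus that in WT was -3.28 ± 0.65 (adjusted p = 0.00285; 3.93% of all genes called). At 24 h Vegfa in KO was at 9.56, 9.42 and 9.43 after IGF1, a difference from 2 h of -2.0 ± 0.46 (adjusted p = 0.00671; 8.98% of all genes called), which was not called without KO IGF1 2 h replicate 2 (-1.34, adjusted p = 0.0647).

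**Figure D2:**
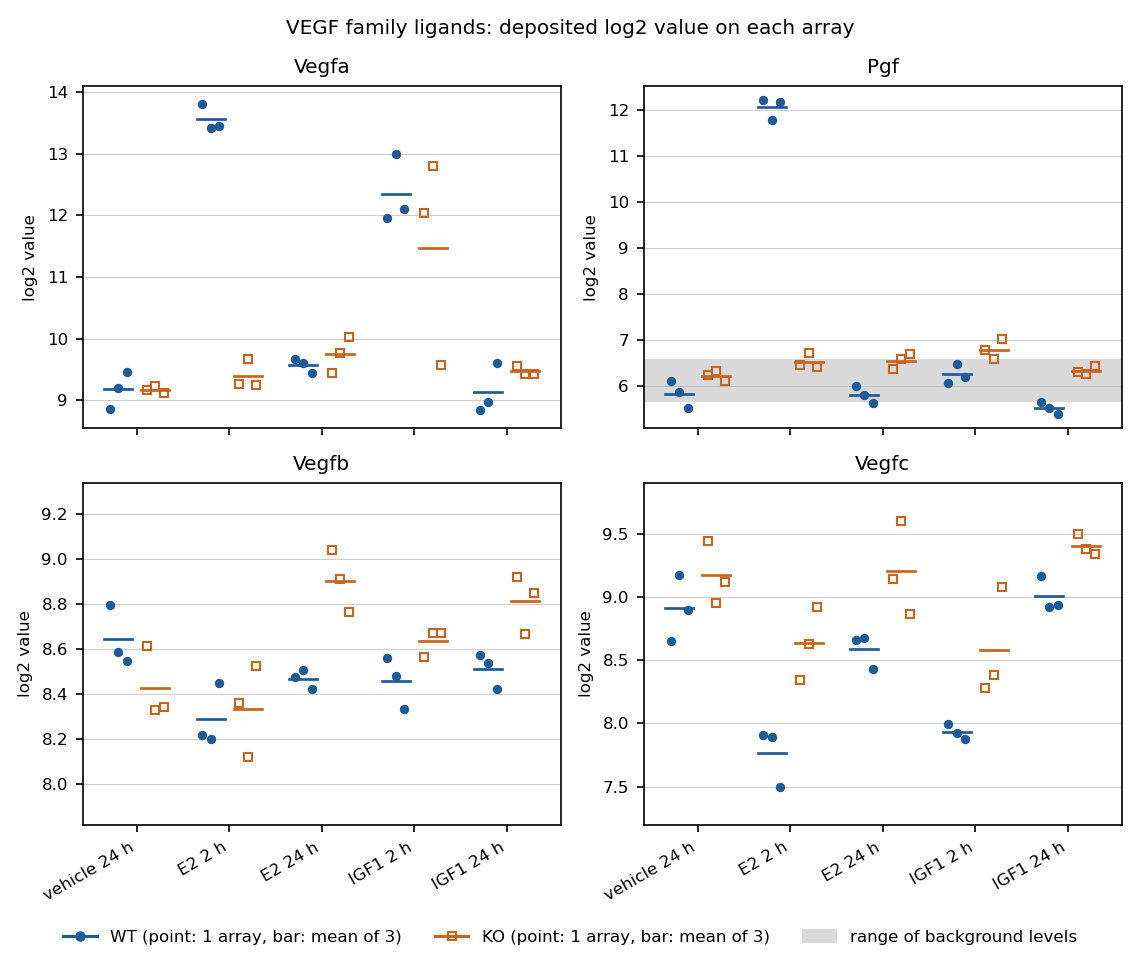
Deposited log2 value (y axis, a separate scale for each gene) of the 4 ligands on each of the 30 arrays, by treatment and time (x axis); filled circles are WT, open squares KO, bars the means of 3 arrays, and the grey band the range of background levels. Pgf leaves the background band on the 3 arrays of WT 2 h after E2 by more than 5 log2 units, and the third KO array of IGF1 at 2 h lies near vehicle for Vegfa.

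Pgf, which encodes placental growth factor, a ligand of VEGFR1, had the widest span of group means of the 8 genes (6.53 log2 units). It was at 6.11, 5.86 and 5.53 in WT vehicle, where 1 of 3 arrays was above background, and at 12.22, 11.78 and 12.17 in WT 2 h after E2. The difference was 6.22 ± 0.16 (adjusted p = 1.24e-18), 74.7-fold on the fitted values and 61.3-fold with vehicle values raised to the background level of their arrays. After IGF1 at 2 h it was at 6.06, 6.49 and 6.20 in WT, 0.42 ± 0.16 above vehicle (adjusted p = 0.0714), and without WT vehicle replicate 1 that difference was 0.55 and called (adjusted p = 0.0266). E2 exceeded IGF1 at 2 h in WT by 5.81 ± 0.16 (55.9-fold, adjusted p = 6.25e-18; 5.57% of all genes called). By 24 h Pgf was at 6.0, 5.80 and 5.63 after E2, with 1 of 3 arrays above background, and at 5.66, 5.53 and 5.38 after IGF1, with none. From 2 h to 24 h after E2 the difference was -6.25 ± 0.16 (adjusted p = 1.13e-18; 27.4% of all genes called), and after IGF1 the 24 h group was at least 1.31-fold lower (adjusted p = 0.00237; 14.5% of all genes called).

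In KO, the group means of Pgf ran from 6.22 to 6.79. It was at 6.23, 6.33 and 6.10 in vehicle, at 6.46, 6.72 and 6.41 at 2 h after E2 and at 6.78, 6.58 and 7.02 at 2 h after IGF1. The E2 difference of 0.31 was not called (95% interval -0.02 to 0.64, adjusted p = 0.437). The IGF1 difference of 0.57 ± 0.16 was called (adjusted p = 0.0286), and the call was lost without KO IGF1 2 h replicate 1 (0.58) or 3 (0.46), or without KO vehicle replicate 1 (0.58) or 3 (0.51). The interaction for E2 at 2 h was -5.91 ± 0.22 (adjusted p = 8.4e-15), and that for E2 against IGF1 at 2 h was -6.07 ± 0.22 (adjusted p = 6.82e-15). At 2 h after IGF1, Pgf in KO lay above WT on all 3 arrays, by 0.54, and was not called (adjusted p = 0.0796). At 24 h KO was above WT after E2 by 0.74 ± 0.16 (adjusted p = 0.000608; 47.0% of all genes called) and after IGF1 at least 1.39-fold (adjusted p = 0.00474; 2.86% of all genes called). With WT values raised to background the E2 difference at 24 h was 1.61-fold. Background itself was higher on these KO arrays, at 6.21, 6.57 and 6.09, than on the WT arrays, at 5.69, 5.84 and 5.76. Pgf on these KO arrays was at 6.37, 6.59 and 6.70, close to that background, and the part of the background level in this difference was not tested. Over all genes, KO exceeded WT at 24 h after E2 by a median of 0.18, and with arrays centred on their medians Pgf was higher in KO by 0.58 (adjusted p = 0.00434).

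Vegfc, the lymphatic ligand, fell at 2 h in WT under both treatments. It was at 8.65, 9.17 and 8.90 in vehicle, at 7.90, 7.89 and 7.50 after E2 and at 7.99, 7.92 and 7.87 after IGF1, with no overlap between vehicle and either treatment. The differences were -1.14 ± 0.20 (adjusted p = 0.000175) and -0.98 ± 0.20 (adjusted p = 0.00119), and without WT vehicle replicate 1 they were -1.27 ± 0.22 and -1.11 ± 0.22. From 2 h to 24 h Vegfc rose by 0.82 ± 0.20 after E2 (adjusted p = 0.00287) and by 1.08 ± 0.20 after IGF1 (adjusted p = 0.000637) in WT. In KO it was at 9.44, 8.95 and 9.11 in vehicle, at 8.35, 8.63 and 8.92 at 2 h after E2 and at 8.28, 8.38 and 9.08 at 2 h after IGF1. Neither KO difference was called, at -0.54 (95% interval -0.96 to -0.12, adjusted p = 0.268) and -0.59 (95% interval -1.01 to -0.18, adjusted p = 0.076), and without KO IGF1 2 h replicate 3 the second was -0.84 ± 0.20 and called (adjusted p = 0.0049). The interactions of 0.61 for E2 (adjusted p = 0.245) and 0.38 for IGF1 (adjusted p = 0.876) did not reach the threshold. With array weights the E2 interaction was 0.68 and called (adjusted p = 0.0391). In KO, Vegfc rose from 2 h to 24 h after IGF1 by 0.83 ± 0.20 (adjusted p = 0.0105), where 8.98% of all genes were called. This call was lost without KO IGF1 2 h replicate 1 (0.68) or 2 (0.73), and with only the compared groups (adjusted p = 0.128). After E2 the KO rise of 0.57 (95% interval 0.15 to 0.99) was not called (adjusted p = 0.0674). Compared at the same time, KO lay above WT 2 h after E2 by 0.87 ± 0.20 (adjusted p = 0.00288), with no overlap. After IGF1 at 2 h KO also lay above WT with no overlap, by 0.65, and was not called (adjusted p = 0.109). Without KO IGF1 2 h replicate 1 that difference was 0.80 and called (adjusted p = 0.046).

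Vegfb, a ligand of VEGFR1, varied least among the ligands, over a span of 0.62 in group means. In WT it was at 8.79, 8.59 and 8.54 in vehicle and at 8.22, 8.20 and 8.44 at 2 h after E2, a difference of -0.35 ± 0.12 (adjusted p = 0.0331). The call was lost without WT vehicle replicate 1 (-0.28, adjusted p = 0.156) or WT E2 2 h replicate 1 (-0.32) or 2 (-0.31), and with arrays centred on their medians (-0.24, adjusted p = 0.13). In KO it was at 8.61, 8.33 and 8.34 in vehicle, 9.04, 8.91 and 8.76 at 24 h after E2 and 8.92, 8.67 and 8.85 at 24 h after IGF1. The KO groups at 24 h after E2 and after IGF1 are the highest of the 10 in their means, while KO vehicle is at rank 8. The difference from vehicle was 0.48 after E2 (95% interval 0.24 to 0.72, adjusted p = 0.159) and 0.38 ± 0.12 after IGF1 (adjusted p = 0.0288), and the latter call was lost without KO vehicle replicate 2 or 3 or KO IGF1 24 h replicate 1 or 3, at differences of 0.33 to 0.37. The change after E2 at 24 h was higher in KO than in WT by 0.65 ± 0.16 (adjusted p = 0.00675; 22.1% of all genes called), against a median over all genes of 0.19, and by 0.46 (adjusted p = 0.0296) with centred arrays. From 2 h to 24 h after E2 in KO, Vegfb rose by 0.57 ± 0.12 (adjusted p = 0.0115; 9.42% of all genes called, median over all genes 0.15), a call lost without KO E2 2 h replicate 2 (0.46) or KO E2 24 h replicate 2 (0.57, adjusted p = 0.0593).

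Nrp2, a co-receptor for VEGF-C, VEGF-A and class 3 semaphorins, was at 8.52, 9.80 and 9.91 in WT vehicle and at 10.84, 10.80 and 10.80 in WT 2 h after E2. The low vehicle value is that of replicate 1. The rise was 1.40 ± 0.30 (2.64-fold, adjusted p = 0.00144), or 0.96 ± 0.27 (adjusted p = 0.0169) without that array. After IGF1 at 2 h it was at 9.56, 9.15 and 9.59, above vehicle replicate 1 and below the other vehicle arrays. The difference of 0.02 (adjusted p = 0.974) was -0.42 (adjusted p = 0.397) without WT vehicle replicate 1. At 2 h E2 exceeded IGF1 by 1.38 ± 0.30 (adjusted p = 0.00448). By 24 h after E2 it was at 8.76, 8.99 and 8.79, a difference from the 2 h group of -1.97 ± 0.30 (adjusted p = 1.88e-05). Against vehicle the 24 h difference was -0.57 (95% interval -1.19 to 0.06, adjusted p = 0.161), and without WT vehicle replicate 1 it was -1.01 and called (adjusted p = 0.00826). In KO, Nrp2 was at 8.70, 9.21 and 9.37 in vehicle and at 8.88, 8.73 and 8.78 at 2 h after E2, a difference of -0.30 (95% interval -0.92 to 0.33, adjusted p = 0.714). The interaction was -1.70 ± 0.43 (adjusted p = 0.0129), and -1.25 ± 0.37 (adjusted p = 0.0354) without WT vehicle replicate 1. After IGF1 at 24 h Nrp2 in KO was at 7.79, 8.32 and 7.85, the lowest of the 10 groups. The difference was -1.11 ± 0.30 from KO vehicle (adjusted p = 0.0147) and -1.24 ± 0.30 from WT IGF1 24 h (adjusted p = 0.0239). The first call was lost without KO vehicle replicate 2 or 3 or KO IGF1 24 h replicate 1 or 3, at -1.05, -0.97, -1.01 and -1.04. The second was lost without WT IGF1 24 h replicate 2 or KO IGF1 24 h replicate 1 or 3, at -1.08, -1.14 and -1.17, and with centred arrays (-1.23, adjusted p = 0.0546).

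Because Vegfa, Pgf and Nrp2 rose together 2 h after E2 in WT and not in KO, the 250 bases before their annotated starts are shown, from RefSeq on build GRCm38.p6, 5′ to 3′ on the strand of the gene. Vegfa and Pgf each have another listed start, not shown. Windows for the 8 measured genes were all in the table. Motif matches on either strand are in capitals.
Vegfa, chr17:46032378-46032627, minus strand: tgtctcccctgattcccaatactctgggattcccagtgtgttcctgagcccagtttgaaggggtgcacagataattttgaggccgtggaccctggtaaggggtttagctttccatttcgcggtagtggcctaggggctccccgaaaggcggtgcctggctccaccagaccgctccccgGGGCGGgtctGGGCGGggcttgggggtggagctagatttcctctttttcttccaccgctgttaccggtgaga
Pgf, chr12:85177314-85177563, minus strand: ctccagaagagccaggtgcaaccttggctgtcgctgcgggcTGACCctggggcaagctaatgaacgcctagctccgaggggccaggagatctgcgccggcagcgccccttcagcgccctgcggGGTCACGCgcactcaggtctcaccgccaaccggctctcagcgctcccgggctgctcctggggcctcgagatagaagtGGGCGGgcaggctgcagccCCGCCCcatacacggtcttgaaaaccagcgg
Nrp2, chr1:62703067-62703316, plus strand: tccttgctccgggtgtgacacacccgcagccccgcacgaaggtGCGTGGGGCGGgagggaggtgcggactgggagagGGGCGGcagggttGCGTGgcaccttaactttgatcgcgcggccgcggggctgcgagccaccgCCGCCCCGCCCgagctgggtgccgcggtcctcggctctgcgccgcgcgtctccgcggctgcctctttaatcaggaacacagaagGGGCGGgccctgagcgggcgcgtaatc

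The motifs searched were the palindromic estrogen response element (the core GGTCA, any 3 bases and the core reversed and complemented), the core GGTCA alone, the hypoxia response cores ACGTG and GCGTG, the AP-1 motif TGANTCA, the GC box GGGCGG, the cyclic AMP element TGACGTCA and TATAAA. The window of Vegfa held 2 GC boxes, at -72 and -62 from the start, and no other of these motifs. Pgf held GGTCA at -209 on the reverse strand and at -127 on the forward strand, the latter overlapping a reverse GCGTG at -124, and GC boxes at -50 and -31. Nrp2 held 2 matches to GCGTG, at -207 and -160, and 5 GC boxes, the first of which begins where the first GCGTG ends and a pair of which share a base. None of the 3 windows held the full estrogen response element, which 0.0639% of all 32851 windows of this length held. The core GGTCA was in 35.2%, GCGTG in 28.2%, ACGTG in 16.6%, the GC box in 32.7%, the AP-1 motif in 6.75%, TATAAA in 12.4% and the cyclic AMP element in 1.55% of all windows. A match is a description of letters and not of binding.

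Kdr encodes VEGFR2, the main signalling receptor for VEGF-A. It was at 8.09, 8.37 and 8.33 in WT vehicle, at 8.38, 8.22 and 8.39 at 2 h after E2 and at 8.73, 8.92 and 8.66 at 2 h after IGF1. Of the E2 arrays, 1 lay within the vehicle range and 2 just above it, and the difference was 0.07 (95% interval -0.24 to 0.37, adjusted p = 0.818), or -0.02 without WT vehicle replicate 1. The IGF1 arrays lay above all others in WT, 0.50 ± 0.15 over vehicle (1.42-fold, adjusted p = 0.0189). This call was lost without WT vehicle replicate 1 (0.42, adjusted p = 0.0977) or WT IGF1 2 h replicate 2 (0.43, adjusted p = 0.0972). By 24 h after IGF1, Kdr was at 7.95, 8.15 and 8.02, a difference from 2 h of -0.73 ± 0.15 (adjusted p = 0.00135). In KO it was at 7.77, 7.80 and 8.15 in vehicle and at 8.20, 8.38 and 7.79 at 2 h after IGF1, which overlap. The difference was 0.22 (95% interval -0.09 to 0.52, adjusted p = 0.458), and the interaction was -0.29 (adjusted p = 0.867). At 24 h after IGF1 the KO difference from vehicle was 0.32 (95% interval 0.02 to 0.63, adjusted p = 0.164).

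Flt1 encodes VEGFR1, in membrane and secreted forms that this probe set was not shown to tell apart. In WT it was at 8.06, 8.22 and 8.23 in vehicle, at 8.64, 8.72 and 8.58 at 2 h after E2 and at 8.74, 9.39 and 8.59 at 2 h after IGF1. Each treated array lay above each vehicle array. The E2 difference of 0.48 (95% interval 0.07 to 0.88) had an adjusted p of 0.1. It was called when these groups alone were fitted (adjusted p = 0.0409) and with array weights (0.42, adjusted p = 0.0209). The IGF1 difference was 0.74 ± 0.20 (1.67-fold, adjusted p = 0.00983). Without WT IGF1 2 h replicate 2 the latter was 0.50 and not called (adjusted p = 0.102), and without WT vehicle replicate 1 it was 0.68 (adjusted p = 0.0428). WT IGF1 2 h replicate 2 was the highest array of its group for Vegfa, Kdr and Flt1. Its mean over 8 neutrophil markers was 7.92, against 6.02 and 5.84 on its mates and 5.54 to 5.96 in WT vehicle, although Elane and Mpo were above background on no array. On KO E2 2 h replicate 2 that mean was 8.20, against 6.07 and 5.46 on its mates, and Vegfa, Kdr and Flt1 were again highest there within the group. On KO IGF1 24 h replicate 2 it was 8.01, against 6.46 and 6.66, and the same genes were lowest there within the group. On KO IGF1 2 h replicate 3 it was 6.99, against 5.87 and 6.06, and these genes were lowest there within the group. The mean over the blood endothelial markers was 8.70 on WT IGF1 2 h replicate 2, against 8.49 and 8.49 on its mates. On KO E2 2 h replicate 2 this mean was 8.92, against 8.46 and 8.54. It was 8.54 on KO IGF1 24 h replicate 2 (mates 8.65 and 8.79) and 8.67 on KO IGF1 2 h replicate 3 (mates 8.43 and 8.24). The part of these cells in the differences was not tested. Without WT IGF1 2 h replicate 2 the Vegfa difference in WT was 2.85 (adjusted p = 0.000601). In KO the vehicle arrays of Flt1 spread from 7.81 to 8.57 and overlapped the groups at 2 h. The differences were 0.24 after E2 (adjusted p = 0.64) and 0.33 after IGF1 (adjusted p = 0.37). At 24 h after IGF1 the KO arrays lay above KO vehicle without overlap, by 0.48 (95% interval 0.08 to 0.89). That difference was not called (adjusted p = 0.112). No difference between genotypes was called for Flt1 in any of the 5 conditions, with estimates from -0.27 to 0.45.

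Flt4, the VEGF-C receptor VEGFR3, was called against vehicle in none of the 8 treated groups, with differences from 0.00 to 0.30. It was at 6.69, 6.95 and 6.94 in WT vehicle and at 5.97, 6.32 and 6.70 in KO vehicle, where 2 of 3 arrays were above background. KO was lower than WT in all 5 conditions by the estimates, -0.53 in vehicle (adjusted p = 0.161), -0.61 ± 0.19 at 2 h after E2 (adjusted p = 0.0242), -0.47 ± 0.19 at 24 h after E2 (adjusted p = 0.0416), -0.54 at 2 h after IGF1 (adjusted p = 0.164) and -0.40 at 24 h after IGF1 (adjusted p = 0.351). The call at 2 h after E2 was lost without WT E2 2 h replicate 1 or 3 or KO E2 2 h replicate 2 or 3, at -0.59, -0.60, -0.62 and -0.47. The call at 24 h was lost without WT E2 24 h replicate 2 or 3 or KO E2 24 h replicate 2 or 3, at -0.34, -0.48, -0.37 and -0.47, and with the replicate number as a block (adjusted p = 0.0516). The vehicle difference was called without KO vehicle replicate 3 (-0.72, adjusted p = 0.0489).

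**Figure D3:**
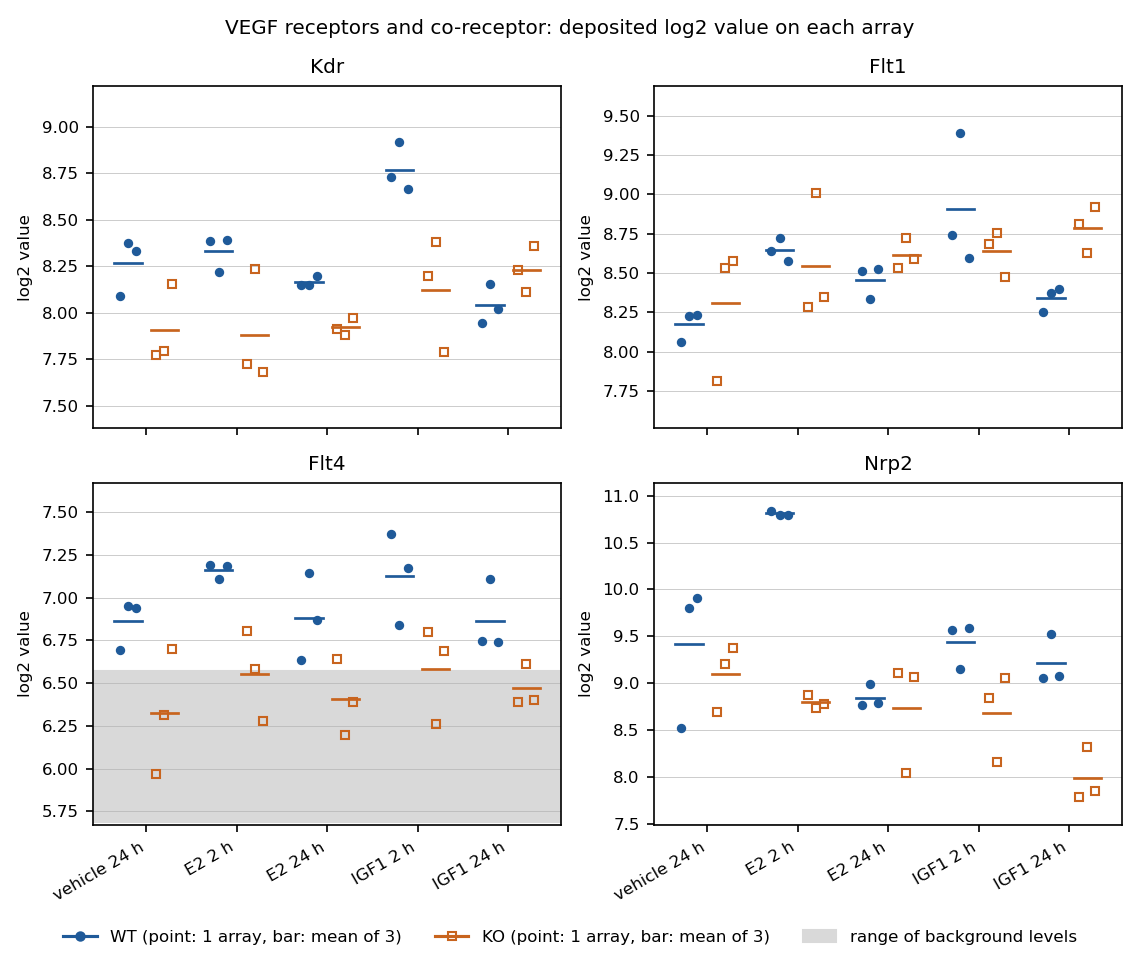
Deposited log2 value (y axis, a separate scale for each gene) of Kdr, Flt1, Flt4 and Nrp2 on each of the 30 arrays, by treatment and time (x axis); filled circles are WT, open squares KO, bars the means of 3 arrays, and the grey band the range of background levels. Kdr is highest in WT 2 h after IGF1 and Nrp2 in WT 2 h after E2, and the Flt4 values of KO lie in or near the band.

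Set side by side, the genotypes differed in no called member under vehicle (limma; 3 members at an unadjusted p under 0.05; 2.92% of all genes called). Vegfa differed there by -0.01 (95% interval -0.95 to 0.94). At 2 h after E2, 6 of 8 members differed, against 17.9% of all genes: Vegfa, Pgf, Nrp2, Flt4 and Kdr were lower and Vegfc was higher in KO. The difference, KO minus WT, was -4.16 ± 0.46 for Vegfa (17.9-fold, adjusted p = 3.44e-07), -5.53 ± 0.16 for Pgf (46.1-fold, adjusted p = 9.77e-18) and -2.02 ± 0.30 for Nrp2 (4.05-fold, adjusted p = 2.65e-05). Kdr was at 7.72, 8.24 and 7.68 in that KO group, a difference of -0.45 ± 0.15 (adjusted p = 0.0344) with overlapping arrays and a call lost without WT E2 2 h replicate 1 or 3 or KO E2 2 h replicate 1 or 3, at -0.43, -0.42, -0.37 and -0.35. At 2 h after IGF1 Kdr alone was called, at -0.65 ± 0.15 (adjusted p = 0.0186; 1.95% of all genes called). That call was lost without WT IGF1 2 h replicate 1 (-0.67) or 2 (-0.57) or KO IGF1 2 h replicate 3 (-0.48, adjusted p = 0.128). At 24 h after E2, 4 of 8 members were called, against 47.0% of all genes, a share near that background: Vegfb, Vegfc and Pgf were higher and Flt4 lower in KO, with Vegfc 0.61 ± 0.20 higher (adjusted p = 0.0162) and Vegfb 0.44 ± 0.12 higher (adjusted p = 0.00429). No member was called between E2 and IGF1 at 24 h, in WT (10.1% of all genes; 1 member at an unadjusted p under 0.05) or in KO (21.5% of all genes; 2 members), by limma. The interaction tests of IGF1 at 24 h (0.00664% of all genes; 3 members at an unadjusted p under 0.05) and of E2 against IGF1 at 24 h (24.3% of all genes; 2 members) called none either. For Nrp2, E2 minus IGF1 at 24 h in KO was 0.75 (adjusted p = 0.0741 by limma). The same treatment difference in KO minus that in WT was 1.13 (adjusted p = 0.0565). Without KO E2 24 h replicate 2 both were called, at 1.10 (adjusted p = 0.0215) and 1.48 (adjusted p = 0.012). With arrays centred on their medians, KO minus WT at 24 h after E2 was 0.45 for Vegfc (adjusted p = 0.0708) and 0.27 for Vegfb (adjusted p = 0.0452). Without KO E2 24 h replicate 2 or WT E2 24 h replicate 3 the call for Vegfc was lost (0.41 and 0.54).

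The receptors are expressed mainly by endothelium, so markers of vessels were read beside them, and in these bulk samples fewer cells of a type and less RNA per cell cannot be told apart. Of 20 measured blood endothelial markers, 16 were above background on every array and none was below it throughout. Their mean level was 8.29 to 8.67 on the WT vehicle arrays, 8.45 to 8.56 at 2 h after E2 and 8.49 to 8.70 at 2 h after IGF1, which overlap. At 2 h after E2 in WT, 3 of the 20 were higher and 4 lower, against 9.84% and 9.18% of all genes. Eng, a TGF-beta co-receptor, was up by 2.13 ± 0.28 and Clec14a, an endothelial lectin, was at -1.58 ± 0.19. In KO the range was 8.00 to 8.56 in vehicle, 8.46 to 8.92 at 2 h after E2 and 8.24 to 8.67 at 2 h after IGF1. No marker was called in these 2 comparisons with vehicle, where 0.365% and 7.13% of all genes were. Between genotypes none of the 20 was called in vehicle, 4 were higher and 2 lower in KO at 2 h after E2, and 1 was higher and 1 lower at 2 h after IGF1, where Kdr was lower. Of all genes, 2.92% were called between genotypes in vehicle, 17.9% at 2 h after E2 and 1.95% at 2 h after IGF1. Of the 5 lymphatic markers, 3 were lower in KO vehicle than in WT vehicle: Lyve1, a hyaluronan receptor, at -1.89 ± 0.40, Mmrn1 at -1.30 ± 0.26 and Reln at -0.89 ± 0.19. Their mean level was 8.24 to 8.76 in WT vehicle and 7.24 to 8.03 in KO vehicle, without overlap, and 8.69 to 8.76 against 7.86 to 8.27 at 2 h after E2. At 24 h after E2 the ranges were 7.77 to 8.13 in WT and 7.74 to 8.05 in KO, and no lymphatic marker differed between genotypes. Other cell types moved too. At 2 h after E2 in WT, 7 of 11 stromal markers were lower and 1 higher than in vehicle, with mean levels of 9.73 to 9.79 against 10.75 to 11.13, and 2 of 9 pericyte markers were lower and 0 higher, with 8.03 to 8.08 against 8.31 to 8.72. Neither range overlapped vehicle. Epithelial markers were higher in KO vehicle for 5 of 13 and lower for 0, with 9.72 to 9.97 against 8.66 to 9.07 in WT vehicle. At 2 h after E2, 9 of 13 epithelial and 8 of 11 stromal markers were higher in KO than in WT, and 1 of each lower. At 24 h after E2, 7 of 13 epithelial, 7 of 11 stromal and 7 of 10 myometrial markers were lower in KO. In that comparison 47.0% of all genes were called, in either direction. The part of these markers in the differences of any member was not tested.

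**Figure D4:**
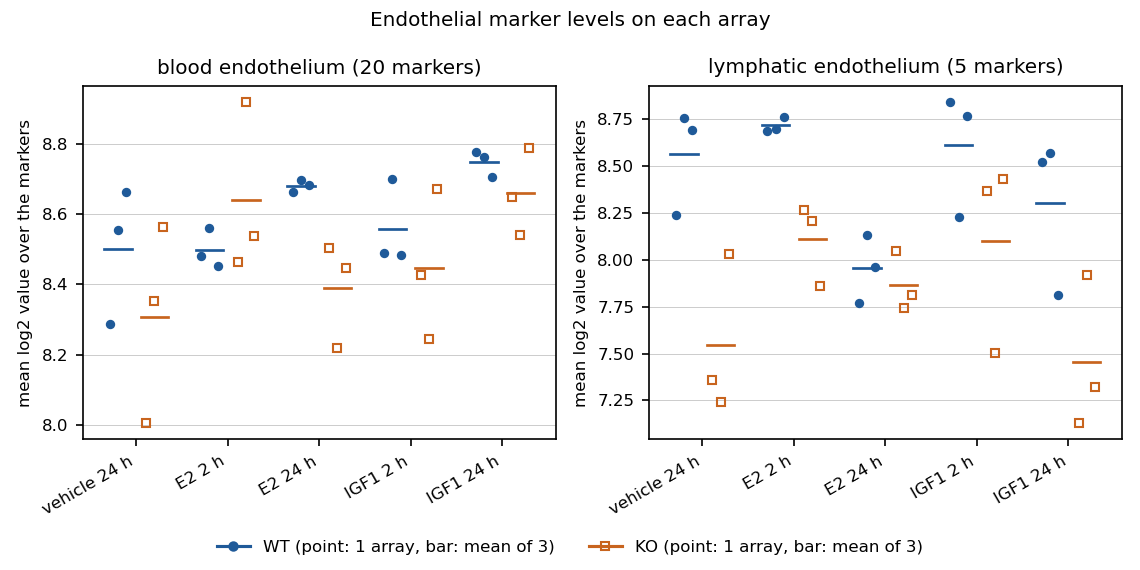
Mean log2 value over 20 blood endothelial markers (left) and 5 lymphatic endothelial markers (right) on each array (y axis), by treatment and time (x axis); filled circles are WT, open squares KO and bars the means of 3 arrays. The blood markers overlap between WT vehicle and the WT groups at 2 h, and the lymphatic markers of KO vehicle, at 7.24 to 8.03, lie below those of WT vehicle, at 8.24 to 8.76.

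Other genes of the pathway were read from lists. Of 23 genes known to be induced by VEGF in endothelium, 13 were higher and 3 lower in WT 2 h after E2, with a list median of 0.93 against -0.09 over all genes, of which 9.84% were higher and 9.18% lower. Nr4a1 (3.94 ± 0.28) and Egr1 (2.82 ± 0.57), immediate-early transcription factors that many other stimuli also induce, and Adamts1, a secreted protease that is also on the list of regulators (3.62 ± 0.27), were among those that rose, while Stc1, a secreted glycoprotein, changed by -3.06 ± 0.48. IGF1 at 2 h in WT gave 9 higher and 1 lower, with Egr1 up by 3.54 ± 0.57 and Nr4a1 by 3.36 ± 0.28, against 9.54% of all genes higher and 7.64% lower. In KO, E2 at 2 h gave 0 higher and 1 lower, Stc1, and IGF1 at 2 h gave 8 higher and 0 lower (4.19% and 2.95% of all genes), with Egr1 up by 3.29 ± 0.57. At 24 h after E2 in WT, where 30.1% of all genes were called, 4 of the 23 were higher and 1 lower, among the former Adamts9 (1.54 ± 0.17) and Apln, the ligand of a receptor on growing vessels (1.08 ± 0.32). Under vehicle, Stc1 was higher in KO than in WT by 3.26 ± 0.48.

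Among 28 signalling intermediates downstream of the receptors, 12 were higher and 4 lower in WT 2 h after E2, with Mapkapk2, a kinase activated by p38, up by 2.98 ± 0.23, Map2k1, which encodes MEK1, by 2.52 ± 0.16 and Pik3r1, a regulatory subunit of PI3-kinase, at -1.22 ± 0.16. After IGF1 at 2 h, 10 were higher and 0 lower in WT, led by Hspb1 (1.19 ± 0.23), and 6 were higher and 0 lower in KO, also led by Hspb1 (1.11 ± 0.23). No intermediate was called by limma in KO after E2 at 2 h or 24 h, where 0.365% and 0% of all genes were. The list medians in WT at 2 h were 0.21 after E2 and 0.23 after IGF1. Of all genes, 9.84% were higher and 9.18% lower in WT 2 h after E2. For IGF1 at 2 h these shares were 9.54% and 7.64% in WT, and 4.19% and 2.95% in KO.

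Of 24 genes that sense low oxygen or are targets of hypoxia-inducible factors, a set to which Vegfa is usually added, 9 were higher and 1 lower in WT 2 h after E2. P4ha2, a collagen prolyl hydroxylase subunit, rose by 3.82 ± 0.22, Adm, a vasodilator peptide, by 3.38 ± 0.46 and Epas1, which encodes HIF-2 alpha, by 2.47 ± 0.34. In WT 2 h after IGF1, 8 were higher and 3 lower, with P4ha2 up by 1.54 ± 0.22. In KO 2 h after IGF1, 7 were higher and 1 lower, and 2 h after E2 only P4ha1 was called (1.0 ± 0.18). Of all genes, 9.84% were higher and 9.18% lower in WT 2 h after E2. For IGF1 at 2 h these shares were 9.54% and 7.64% in WT, and 4.19% and 2.95% in KO. In KO 2 h after E2, 0.365% of all genes were called. At 24 h after E2 in WT, where Vegfa was not called, 8 were higher and 4 lower (30.1% of all genes called), with the glycolytic enzyme genes Pgk1 up by 3.09 ± 0.33 and Ldha by 1.81 ± 0.23.

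Among 24 regulators of VEGF transcripts and receptors, 10 were higher and 3 lower in WT 2 h after E2. Of all genes, 9.84% were higher and 9.18% lower there. Zfp36, whose protein binds AU-rich elements and destabilizes mRNAs, rose by 3.19 ± 0.34, and Vegfd, another ligand of VEGFR3, changed by -1.59 ± 0.33. After IGF1 at 2 h, 12 were higher and 1 lower in WT, against 9.54% and 7.64% of all genes. In KO, 7 were higher and 0 lower, against 4.19% and 2.95% of all genes. Thbs1, a secreted inhibitor of angiogenesis, rose by 2.78 ± 0.44 in WT and by 3.37 ± 0.44 in KO. Vegfd differed between KO and WT vehicle by -1.29 ± 0.33, and Efnb2, a ligand of the vessel-patterning receptor EphB4, was higher by 2.23 ± 0.39. Of 13 class 3 semaphorins and plexins, the other ligands and partners of neuropilins, 3 were higher and 3 lower in WT 2 h after E2, with Sema3f, a ligand of neuropilin 2, up by 1.50 ± 0.23 and Sema3a at -0.96 ± 0.22. Sema3e, a ligand of plexin D1, was higher in KO than in WT in all 5 conditions, by 1.49 to 2.57. Of 5 measured PDGF ligands and receptors, Pdgfc was called lower at 2 h in WT, at -1.53 ± 0.25 after E2 and -1.28 ± 0.25 after IGF1.

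The order of the group means differed by member. Vegfa ran from WT 2 h after E2 (13.56), which no other group overlapped, through WT and KO 2 h after IGF1 (12.35 and 11.47) to 7 groups between 9.14 and 9.75 that overlapped their neighbours. Pgf had WT 2 h after E2 at 12.06 and the other 9 groups between 5.53 and 6.79, each overlapping the next. Nrp2 had WT 2 h after E2 at 10.81, apart from the rest, and the others between 7.98 and 9.43, each overlapping the next. For Vegfc the lowest groups, WT 2 h after IGF1 (7.93) and after E2 (7.76), did not reach the next, KO 2 h after IGF1 (8.58). For Kdr WT 2 h after IGF1 (8.77) stood apart from the group next to it, while for Flt1, Flt4 and Vegfb each group overlapped the next. The genes whose 10 group means correlated best with a member, among 6019 genes, were Foxn2 (Pearson r = 0.995), Nr4a1 (0.992) and Ier2 (0.990) for Vegfa, and Plekhg3 (0.992), Dennd2a (0.984) and Gadd45g (0.983) for Pgf. For Nrp2 they were Mtss1 (0.967), Atxn1l (0.951) and Zfp655 (0.938), for Vegfc Ttc8 (0.972), Senp8 (0.966) and Nbdy (0.964), and for Flt4 Slc38a1 (0.965), Tbc1d1 (0.963) and Palld (0.949). Kdr was best matched by Pth1r (0.924), Gli2 (0.923) and St3gal5 (0.897), Vegfb by Coa6 (0.891), Smim26 (0.856) and Tmem42 (0.854), and Flt1 by Sec24b (0.868), Nr2f6 (0.853) and Noct (0.840). These values describe 10 means that share arrays with the members and carry no test.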

How the data were processed

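The authors deposited log2 values for 72688 probe sets of an Affymetrix whole-transcript array, and these were analysed unchanged. Per the labels' protocols, 300 ng of total RNA was labelled with the WT Plus kit. Software, normalization and genome build: not given in the sources used here. Of 32750 annotated probe sets, 30604 had 1 symbol and gave 30142 genes (827 symbols updated); 355 genes had more than 1 probe set and were read from the brightest.

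A group-mean model over all 30 arrays was fitted with limma 3.58.1 in R 4.3.3 (empirical Bayes, prior degrees of freedom 3.66, residual 20); tables and figures used Python 3.11.15. P-values were adjusted within each of 27 comparisons, of which 6 are interactions. The fit was tested on simulated data. A fold is "at least" where every array of the dimmer group lay at or below background.

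Members and gene lists were chosen with earlier results of these data known. Named are all members, up to 4 called genes of largest change per list and comparison, the 3 genes closest in pattern to each member (group means spanning at least 1 log2 unit), Esr1, and those said to be chosen later. The alternatives tried were centring arrays, quantile normalization, a filter on dim genes (18204 genes left), averaging probe sets, fitting compared groups alone, another prior, weighting arrays, blocking by replicate number, dropping the 2 arrays of lowest weight, and dropping each array in turn. Promoter windows are RefSeq's, on GRCm38.p6.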

Additional observations from a re-analysis of the deposited data

Results flagged for a closer look

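For 6 results the change in KO differed from the change in WT by an interaction test in limma. For Vegfa the change after E2 at 2 h differed by -4.15 ± 0.65 (adjusted p = 0.000148), with 3 of 3 WT arrays above every vehicle array by more than 3 log2 units, and the difference between E2 and IGF1 at 2 h differed by -3.28 ± 0.65 (adjusted p = 0.00285). The second was not called when the fit held only the 4 groups compared (adjusted p = 0.0995) and ran over the alternatives from -4.23 ± 0.36, without KO IGF1 2 h replicate 3, to -2.62 ± 0.56, without replicate 2 of that group. For Pgf the same comparisons gave -5.91 ± 0.22 (adjusted p = 8.4e-15) and -6.07 ± 0.22 (adjusted p = 6.82e-15), called under every alternative run. For Nrp2 the change after E2 at 2 h differed by -1.70 ± 0.43 (adjusted p = 0.0129), and adjusted p reached 0.0384 over the alternatives. For Vegfb the change after E2 at 24 h differed by 0.65 ± 0.16 (adjusted p = 0.00675), where the median over all genes was 0.19, and it ran from 0.46 to 0.95 over the alternatives with adjusted p up to 0.0409.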

How the results depend on the processing

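Of 216 differences (8 genes in 27 comparisons) 46 were called, 28 of them under every alternative run, and none changed sign. A fit of fewer arrays estimates the spread from fewer samples, and a fit of the compared groups alone takes it from those groups. For Vegfa in KO IGF1 2 h against vehicle, the SE was 0.46 in the main fit and 0.74 with only the compared groups. Counts of called members that moved by over 1.5 times follow, and the causes of the moves were not tested. WT E2 24 h against vehicle went from 0 to 2 with quantile normalization, 2 with array weights and 1 without the 2 arrays of lowest weight, where Nrp2 was called (-1.01, adjusted p = 0.00162). KO E2 against IGF1 at 24 h went from 0 to 1 under each of the same alternatives. The genotype difference of E2 against IGF1 at 24 h went from 0 to 1 under these 3 and with dim genes removed, and to 2 with only the compared groups. With only the compared groups, WT IGF1 2 h went from 4 to 2, KO IGF1 2 h from 2 to 0, KO IGF1 24 h from 2 to 1, KO against WT at IGF1 2 h from 1 to 0, KO E2 against IGF1 at 2 h from 1 to 0, KO E2 24 h against 2 h from 1 to 0 and KO IGF1 24 h against 2 h from 2 to 0. KO IGF1 24 h also went to 1 with quantile normalization, and KO against WT at IGF1 24 h went from 2 to 1 with centred arrays. Array weights gave 1 in WT IGF1 24 h (0 before), 2 for KO against WT in vehicle (0 before; Nrp2 and Pgf), 1 in KO IGF1 2 h, 4 for WT E2 against IGF1 at 2 h (2 before) and 2 for the interaction of E2 at 24 h (1 before). Without the 2 arrays of lowest weight that interaction also had 2, KO against WT had 2 at E2 24 h (4 before) and 2 at IGF1 2 h (1 before).

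Leaving out each array in turn gave counts of 4 to 5 for WT E2 2 h, 2 to 4 for WT IGF1 2 h, 0 to 2 for KO IGF1 2 h, 0 to 2 for KO IGF1 24 h, 0 to 1 for WT E2 24 h, 4 to 6 for KO against WT at E2 2 h, 2 to 4 at E2 24 h, 0 to 2 at IGF1 2 h, 1 to 2 at IGF1 24 h and 0 to 1 in vehicle. The range was 0 to 1 for KO E2 against IGF1 at 2 h and at 24 h and for its genotype difference at 24 h, and 0 to 2 for KO E2 and for KO IGF1 24 h against 2 h. Replicate numbers did not pair the samples in most comparisons. The correlation of deviations of same-numbered arrays ran from -0.285 to 0.433, and all 3 pairs passed 0.1 in 1 of 21 comparisons. That comparison was KO against WT in vehicle (0.433, 0.147 and 0.296), so same-numbered vehicle arrays did share deviations. With the number as a block no count moved by over 1.5 times; Flt4 in KO against WT at E2 24 h was not called (adjusted p = 0.0516) and Flt1 in WT IGF1 24 h against 2 h was (-0.57, adjusted p = 0.04). Pgf and Flt4 lie near background in many groups, so small differences among those groups are not measured well.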
